A study of Mus musculus with 6 samples.

Results

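Imprinted genes that regulate growth were followed in whole embryonic mouse kidneys (metanephros) lacking or carrying Wnt4, a secreted signal without which mesenchyme does not turn into nephron epithelium. The genes were Plagl1, Dlk1, Meg3, Nnat, Peg3, Igf2, H19, Mest, Grb10 and Gnas, and every probe set of the array whose annotation gave exactly 1 of these symbols was taken. This found 18 of 12422 probe sets, for 9 of the 10 genes and of 8251 genes named in this way. The only probe set annotated to H19 also carried the symbol Mir675, the microRNA made from the H19 transcript, so H19 has no value here. These genes were selected on imprinting together with the mutant minus wild-type differences of these same arrays, which were known when they were chosen. Their differences are therefore given as a description, with no p-value.

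The 6 one-colour Affymetrix MG_U74Av2 arrays held 2 pools of Wnt4 mutant kidneys and 4 pools of wild-type kidneys, all at E14.5. Each mutant pool held 8 to 10 kidneys from 4 to 5 embryos with the Wnt4tm1Amc allele in a strain labelled 129. The labels used here do not say whether these embryos were homozygous. Each wild-type pool held 2 kidneys from embryos labelled CD-1, an outbred stock, and embryo sex was unknown throughout. The protocol text of all samples, the mutant ones included, speaks of CD-1 matings. Genotype, strain label and pool size cannot be told apart. In bulk RNA from whole kidneys, more cells of a type and more RNA per cell cannot be told apart.

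The arrays carried the pattern their labels give. Wnt4 read 74.2 and 34.5 in the mutant pools, against 829, 739, 946 and 699 in the wild-type pools, which is -3.59 ± 0.24 on the log2 scale (mutant minus wild type with SE; adjusted p = 6.11e-05 by limma). Of 9 nephron epithelium markers tested, 9 were lower in the mutant, with a median of -2.50. The progenitor factor Six2 was present in both groups, with 2643 and 2457 in the mutant, against 2584 to 2925 in the wild type. Of the 10 kidney markers measured, Ret alone did not reach the filter level described below. Differences were positive for 5 of the other 9, whose median was 0.14. Foxd1, which is also a stroma marker, was higher by 1.75 and alone reached an adjusted p below 0.05 (limma). Pax2 (-1.05) and Wt1 (-0.48) were lower in both mutant pools than in any wild-type pool, but missed that level.

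An imprinted gene is expressed mainly from the copy inherited from a single parent, under methylation marks set in the egg or sperm. Many paternally expressed genes promote fetal growth and many maternally expressed ones restrain it, and a large group of them is high in the embryo and shut down after birth. Plagl1 encodes a zinc finger transcription factor that, in mice, regulates other imprinted genes, among them Igf2, H19, Cdkn1c and Dlk1, in what has been called an imprinted gene network.

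The 120 bases before the first listed transcript start are shown for the 5 genes that had a probe set past the array-wide threshold, since these genes moved in the same direction. They are from RefSeq on build GRCm38.p6, read 5′ to 3′ on the gene's own strand, and capitals mark CpG pairs, the letters at which imprinting marks are set. This start is not always the outermost. The Dlk1 stretch lies inside the annotated gene, which begins at 109452485, and the Peg3 stretch overlaps its gene, whose 5′ end is at 6730462.
Plagl1, chr10:13090712-13090831, plus strand: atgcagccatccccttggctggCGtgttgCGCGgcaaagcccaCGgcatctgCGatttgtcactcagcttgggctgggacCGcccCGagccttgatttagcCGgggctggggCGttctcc
Dlk1, chr12:109452703-109452822, plus strand: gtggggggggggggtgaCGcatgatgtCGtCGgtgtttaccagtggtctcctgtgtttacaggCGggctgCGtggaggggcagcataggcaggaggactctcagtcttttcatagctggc
Meg3, chr12:109540876-109540995, plus strand: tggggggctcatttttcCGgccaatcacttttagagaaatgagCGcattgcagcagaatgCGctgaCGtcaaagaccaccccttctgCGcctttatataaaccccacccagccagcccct
Nnat, chr2:157559958-157560077, plus strand: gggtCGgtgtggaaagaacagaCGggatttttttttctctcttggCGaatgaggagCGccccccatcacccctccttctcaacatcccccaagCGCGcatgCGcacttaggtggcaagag
Peg3, chr7:6730420-6730539, minus strand: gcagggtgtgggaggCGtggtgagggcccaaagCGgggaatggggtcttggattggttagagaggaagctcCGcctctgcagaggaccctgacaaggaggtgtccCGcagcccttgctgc
These stretches held 9 CpG pairs in Plagl1, 5 in Dlk1, 5 in Meg3, 7 in Nnat and 4 in Peg3. Of the 10 genes, 9 matched the promoter table, with 19 start sites. Over the 250 bases before the start, the observed over expected CpG ratio was 0.62 for Plagl1, 0.50 for Dlk1, 0.58 for the first Meg3 start, 0.64 for Nnat and 0.35 for Peg3. The median over 32851 promoters was 0.37, so 4 of these 5 lay above it and Peg3 just below. The second Meg3 start had 0. At the starts of the other members the ratio was 0.98 and 0.45 for Grb10, 0.69 to 0.89 for Gnas, 0.32 to 0.62 for Mest and 0.06 to 0.88 for Igf2. A ratio above the median was therefore not particular to the 5 genes shown. The TATA box letters TATAAA, searched on both strands, were in 4 of the 19 windows, which belonged to Meg3 and Gnas, and in 12.4% of all promoters. The matching Gnas windows that begin at 174327499 and 174327518 share most of their bases, so the count of windows is not one of separate promoters. In the Meg3 stretch the TATA box letters can be read as tataaa near the 3′ end. A match describes letters only.

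In the mutant kidneys Plagl1, Dlk1, Meg3, Nnat and Peg3 were higher at 1 or more probe sets, with group means 1.71 to 3.98 times those of the wild type at the 5 probe sets past the threshold, while Igf2, Mest and Gnas differed little and Grb10 could not be judged because of a single wild-type array. Signals were compared as log2(signal + 16), as mutant minus wild type, for probe sets above the 40th percentile of their own array on at least 2 arrays. Of the 18 member probe sets 14 passed this filter, and the other 4 (Igf2 98622_at, Grb10 95450_at, Gnas 102082_at and Gnas 92672_at) read at most 64.7 on every array and were not tested. In the fit across all probe sets, 5 of the 14 were past an adjusted p of 0.05 in the higher direction and 0 in the lower. Over the whole array, 4.65% of 7981 tested probe sets were past it as higher and 6.11% as lower. Both mutant arrays lay above all 4 wild-type arrays at 11 of the 14 probe sets, below them at 0, and overlapped at 3. Over the whole array 18.6% lay above and 18.8% below. Since the members were picked with this contrast known, nothing is read from these counts.

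**Figure D1:**
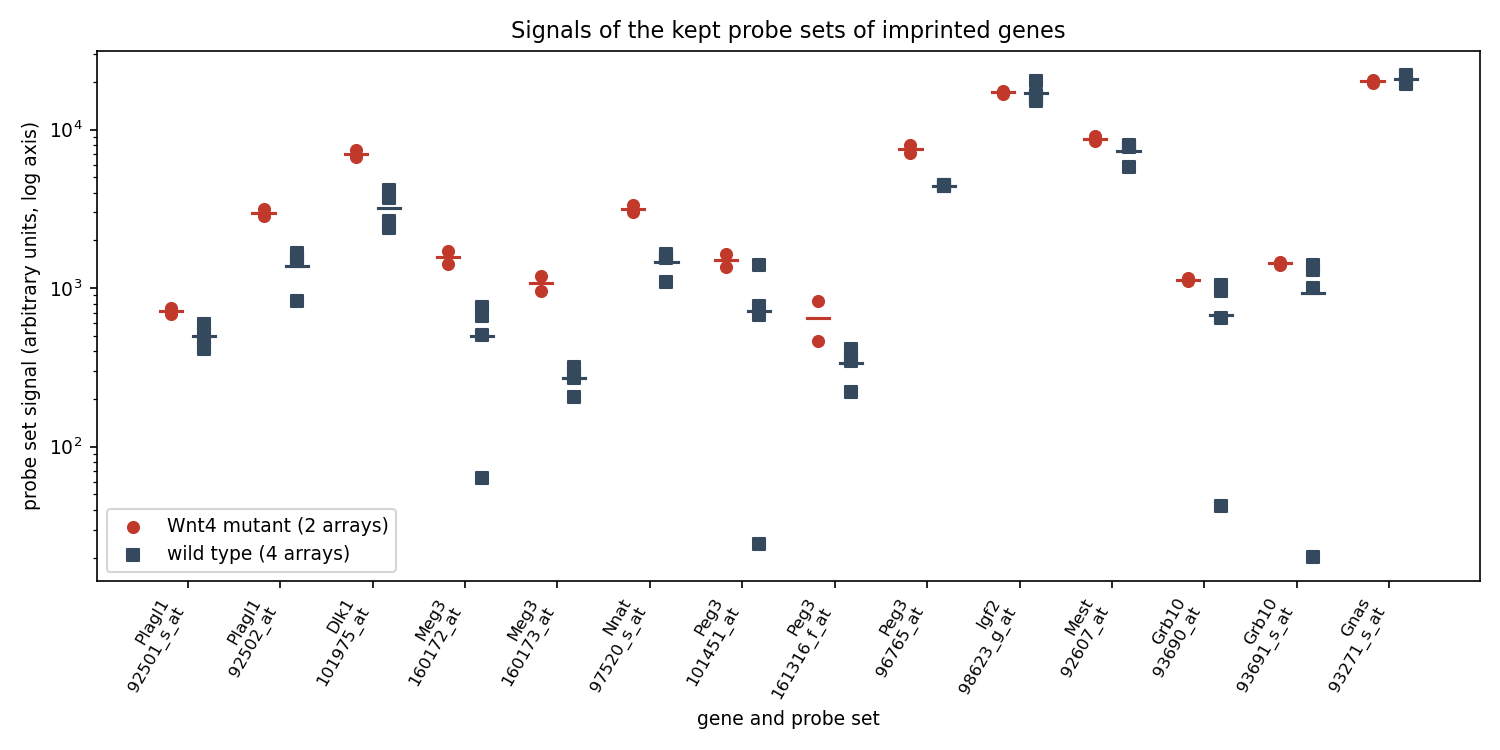
Signal (log axis) of each of the 14 kept member probe sets on the 2 Wnt4 mutant arrays (circles) and 4 wild-type arrays (squares), with lines at the group means. The mutant points lie above all wild-type points except at Peg3 101451_at, Igf2 98623_g_at and Gnas 93271_s_at, and single wild-type arrays fall far down at Meg3, Peg3 and Grb10.

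Plagl1 is paternally expressed and restrains or promotes growth depending on the cell. Its probe set 92502_at read 2840 and 3150 in the mutant pools, against 1656, 1553, 1476 and 828 in the wild-type pools. Wild-type pool 4 was the low array, and the groups did not overlap. The means were 2995 ± 219 (SD, n = 2) in the mutant and 1378 ± 374 (SD, n = 4) in the wild type, a log2 difference of 1.16 ± 0.25 (SE), past the threshold. Without wild-type pool 4 the difference was 0.93 and still past it, and with either mutant pool left out (1.08 and 1.23) it was not. The second probe set, 92501_s_at, read 691 and 753 in the mutant, against 590, 527, 460 and 416 in the wild type. It was also higher in both mutant pools, but by 0.53 ± 0.15, and did not pass. Affymetrix names ending in s, f or g mark probe sets whose probes are shared with other transcripts or probe sets, and 92501_s_at is such a probe set. So are Peg3 161316_f_at, Grb10 93691_s_at and the only kept probe sets of Nnat, Igf2 and Gnas below.

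Dlk1 and Meg3 are neighbours in the same imprinted domain, where Dlk1 is expressed from the paternal chromosome and Meg3 from the maternal one. Dlk1 encodes a membrane protein with EGF repeats that holds back fat cell differentiation, and it is related to the Notch ligands. Dlk1 101975_at read 6668 and 7381 in the mutant, against 2667, 4139, 3683 and 2401 in the wild type. Even the highest wild-type pool lay 1.61-fold below the lower mutant pool. The means were 7024 ± 504 (SD, n = 2) and 3223 ± 824 (SD, n = 4), a log2 difference of 1.15 ± 0.20, past the threshold. With either mutant pool left out it was 1.23 and 1.08 and not past it.

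Meg3 makes a long non-coding RNA. Its probe set 160173_at read 962 and 1201 in the mutant, against 206, 271, 318 and 291 in the wild type. The groups were far apart, with the lower mutant pool 3.02-fold above the highest wild-type pool and no single low wild-type array. The log2 difference was 1.94 ± 0.19, past the threshold, and it had the highest ratio of group means among the kept probe sets, 3.98. The other probe set, 160172_at, read 1422 and 1707 in the mutant, against 766, 510, 668 and 63.7 in the wild type. Here wild-type pool 4 lay far below the others, although at 160173_at the same pool read 291. The difference was 2.02 ± 0.78 and did not pass with all arrays. It was 1.26 ± 0.17 without wild-type pool 4 and then passed. Within the domain the log2 level of Dlk1 minus that of Meg3 160173_at was 2.77 and 2.60 in the mutant, against 3.60, 3.85, 3.47 and 2.98 in the wild type. Against Meg3 160172_at the same quantity was 2.22 and 2.10 in the mutant, against 1.78, 2.98, 2.44 and 4.92 in the wild type. The groups were apart with the first Meg3 probe set and overlapped with the second.

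Nnat encodes neuronatin, a small membrane proteolipid that affects calcium handling, and is paternally expressed. Nnat 97520_s_at read 3339 and 3011 in the mutant, against 1563, 1636, 1098 and 1547 in the wild type. The groups did not overlap, and the low wild-type array was pool 3. The means were 3175 ± 232 (SD, n = 2) and 1461 ± 245 (SD, n = 4), a log2 difference of 1.13 ± 0.16, past the threshold.

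Peg3 is a paternally expressed zinc finger gene, found in mouse studies to be active in mesenchyme and muscle progenitors. Its brightest probe set, 96765_at, read 7119 and 8051 in the mutant, against 4437, 4471, 4444 and 4394 in the wild type. The 4 wild-type pools were nearly equal, with a coefficient of variation of 0.713%, and both mutant pools were above them. The log2 difference was 0.77 ± 0.08, past the threshold. Peg3 161316_f_at read 466 and 826 in the mutant, against 347, 416, 366 and 222 in the wild type. The mutant pools differed from each other here, and the difference of 0.88 ± 0.28 did not pass. Peg3 101451_at read 1355 and 1647 in the mutant, against 681, 24.2, 771 and 1408 in the wild type. The groups overlapped, wild-type pool 2 was nearly dark, and the difference of 1.84 ± 1.17 did not pass. It was 0.71 ± 0.28 without that pool. At 96765_at the same pool read 4471, level with the other wild-type pools.

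**Figure D2:**
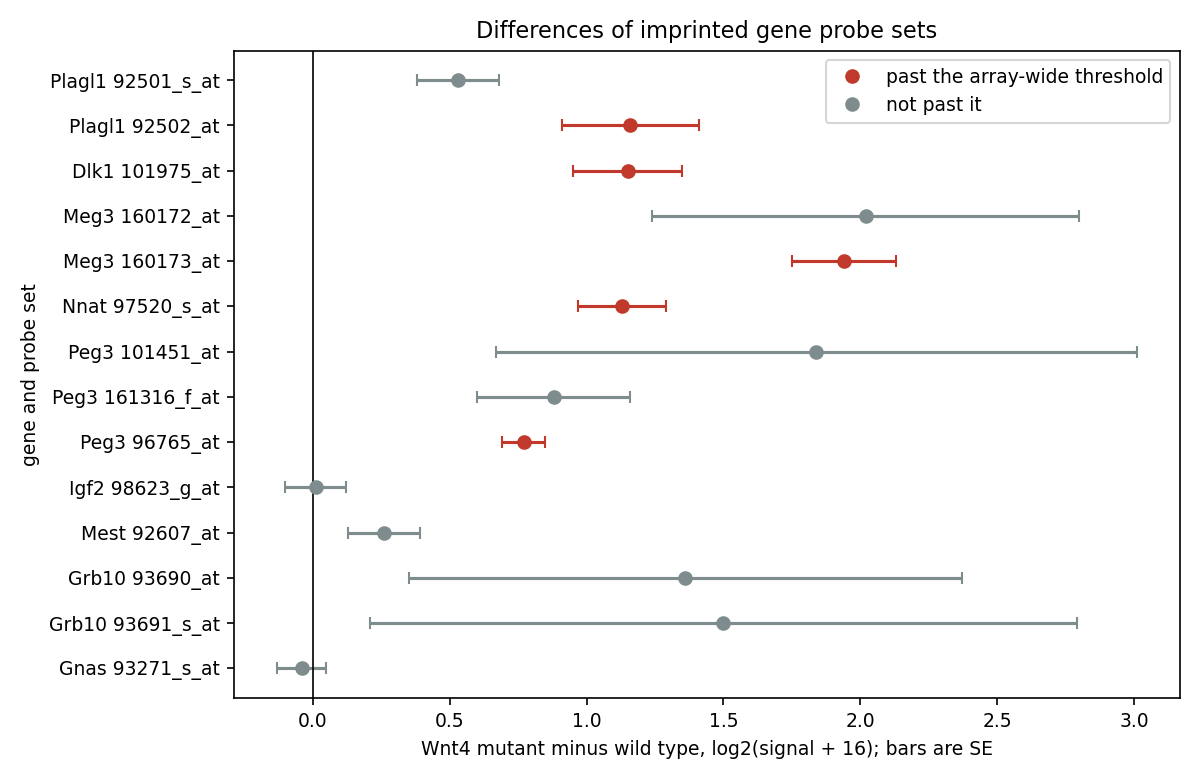
Log2 difference, Wnt4 mutant minus wild type, with SE for each kept member probe set (2 mutant and 4 wild-type arrays); red marks those past the array-wide threshold. The 5 red points lie between 0.77 and 1.94, and the widest bars belong to probe sets with a single low wild-type array.

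Igf2, a paternally expressed growth factor of the fetus, stood near the top of the measured range in every pool. Igf2 98623_g_at read 17450 and 16869 in the mutant, against 16362, 16572, 15252 and 20119 in the wild type. The mutant pools lay within the wild-type range, and the log2 difference was 0.01 ± 0.11. Signals on these arrays reached 36134, and whether the brightest probe sets still respond in proportion to RNA was not tested. Igf2 98622_at, in the same annotation, read 5.86 to 49.7 on all arrays and was below the filter.

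Mest, a paternally expressed enzyme of the hydrolase family found in mesoderm, read 8474 and 9062 in the mutant, against 7922, 7940, 7744 and 5823 in the wild type. Both mutant pools lay above the wild type by a small margin, and wild-type pool 4 was again the low array. The log2 difference was 0.26 ± 0.13 and did not pass. It was 0.16 without wild-type pool 4.

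Grb10 encodes an adaptor that dampens signalling from the insulin and IGF receptors, and it is maternally expressed outside the nervous system and paternally expressed in neurons. Grb10 93691_s_at read 1471 and 1408 in the mutant, against 1307, 20.2, 1407 and 1002 in the wild type. Grb10 93690_at read 1153 and 1106 in the mutant, against 957, 42.3, 1048 and 646 in the wild type. Wild-type pool 2 was nearly dark at both probe sets, while pools 1 and 3 lay near the mutant pools and pool 4 lower, with 1002 and 646. The differences were 1.50 ± 1.29 and 1.36 ± 1.01 with all arrays. They were 0.23 ± 0.15 and 0.38 ± 0.20 without wild-type pool 2, and passed in neither case.

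Gnas encodes the stimulatory G protein alpha subunit from a locus whose alternative first exons are imprinted in opposite directions, while the main transcript is expressed from both copies in most tissues. Gnas 93271_s_at read 20632 and 19673 in the mutant, against 19585, 21913, 19395 and 22135 in the wild type. The groups overlapped, and the difference was -0.04 ± 0.09. Gnas 102082_at read 4.30 and 5.88 in the mutant, against 64.7, 60.6, 3.38 and 7.40 in the wild type, all below the filter. The files used here do not say which Gnas transcript each probe set detects.

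**Figure D3:**
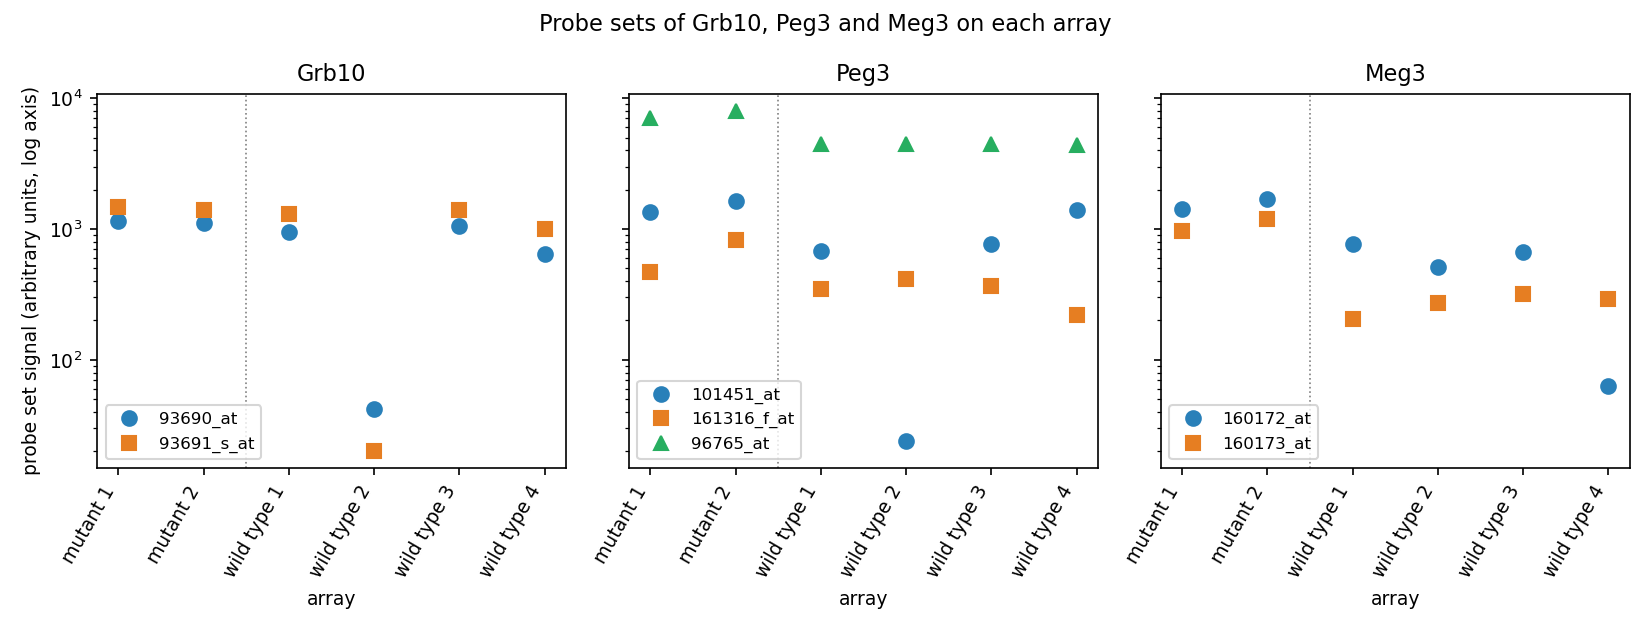
Signal (log axis) of each kept probe set of Grb10, Peg3 and Meg3 on the 2 Wnt4 mutant arrays and then the 4 wild-type arrays. Both Grb10 probe sets and Peg3 101451_at fall to between 20.2 and 42.3 on wild-type array 2, and Meg3 160172_at falls to 63.7 on wild-type array 4, while other probe sets of Peg3 and Meg3 do not fall there.

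Such falls on a single array were uncommon. Across the 7981 tested probe sets, 7 were at least 8-fold lower on wild-type array 2 than on each of the other 5 arrays, all of which were above 300, a criterion chosen after the values were seen. Of these 7, 3 were the Grb10 and Peg3 probe sets, and the others were Srpr, Rcc2, Baz1b and a probe set unnamed here. Wild-type array 4 had 1, Meg3 160172_at, wild-type array 3 had 1 and the other arrays had 0. Wild-type array 4 was also the lowest wild-type array at 7 of the 14 member probe sets, and at 32.8% of all tested. With wild-type arrays 2 and 4 both left out, a choice made after seeing the data, 7 member probe sets were past the threshold as higher, the added ones being Meg3 160172_at and Peg3 101451_at. At Peg3 101451_at, however, wild-type array 4 was not low. It was the highest wild-type array there, with 1408, and lay above mutant array 1, with 1355. Without wild-type array 2 alone this probe set had 0.71 and did not pass.

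By the expressed copy, 9 kept probe sets belonged to 6 paternally expressed genes (Plagl1, Dlk1, Nnat, Peg3, Igf2 and Mest), with differences between 0.01 and 1.84, and 4 were past the threshold. The 2 probe sets of the maternally expressed Meg3 had 1.94 and 2.02, and 1 was past it. The 2 of Grb10 had 1.36 and 1.50 with all arrays, and the 1 of Gnas had -0.04. On the maternal side Meg3 alone was past the threshold, and Grb10 could not be judged. Over the whole array 4.65% of tested probe sets were past it as higher. The members were picked with this contrast known, so nothing about the expressed copy is read from these counts.

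The share of other imprinted genes past the threshold was near that of all genes. Of 67 further imprinted genes listed, 35 were on the array and 26 were tested at their brightest probe set, of which 2 rose, 1 fell and 23 did not pass. Their median difference was 0.10, against 0.01 over all 6082 genes tested, of which 5.13% rose and 6.35% fell. Dcn, which encodes the matrix proteoglycan decorin and is maternally expressed in mouse placenta, rose by 0.71 ± 0.09 (limma, adjusted p = 0.00162), with 3765 and 3861 in the mutant, against 2594, 2265, 2227 and 2258 in the wild type. Ndn, a paternally expressed MAGE family gene of neurons and mesenchyme, read 3205 and 3613 in the mutant, against 2044, 2564, 2667 and 2379 in the wild type. It rose by 0.50 ± 0.12 (limma, adjusted p = 0.0312), although its second probe set had 0.25 (adjusted p = 0.111) and the call was lost without either mutant pool. Dhcr7, the last enzyme of cholesterol synthesis, fell by 1.00 ± 0.25 (adjusted p = 0.0351), with 164 and 122 in the mutant, against 416, 302, 280 and 229 in the wild type. The Dhcr7 call was lost on leaving out any array except wild-type pool 4. The smallest differences were those of Ampd3 (0.01, adjusted p = 0.986) and Phlda2 (0.02, adjusted p = 0.970). Cdkn1c and Igf2r, named here after their values were seen, had 0.35 (adjusted p = 0.089) and 0.37 (adjusted p = 0.0598). Cdkn1c is a cell cycle inhibitor and Igf2r the receptor that clears Igf2, both maternally expressed, and for each the mutant pools lay above all wild-type pools. Among genes of the list that did not pass, so did Kcnq1, Tssc4, Osbpl5 and Slc38a4, while Pon2 lay below all wild-type pools. Over the whole array 18.6% of tested probe sets lay above in this way and 18.8% below, so nothing is read from this.

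Around Igf2 and Grb10, 25 of 40 listed IGF and insulin signalling genes were tested, of which 2 rose and 0 fell, and the other 23 did not pass (median -0.02). Igfbp6, a binding protein that prefers Igf2, read 1815 and 1675 in the mutant, against 540, 779, 744 and 583 in the wild type. It rose by 1.39 ± 0.16 (limma, adjusted p = 8.42e-04), and the groups were well apart. Shc1, an adaptor below the receptors, rose by 0.50 ± 0.13 (adjusted p = 0.0385), while its second probe set had 0.93 (adjusted p = 0.432). The Shc1 call was lost without either mutant pool and without wild-type pool 1 or 3. Foxo3 and Igfbp3 had -0.02 each (adjusted p = 0.923 and 0.954).

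Of 33 genes listed for keeping imprints and for DNA methylation, 20 were tested, and 0 rose, 1 fell and 19 did not pass (median -0.09). Uhrf1, which brings the maintenance methyltransferase to newly copied DNA, fell by 0.59 ± 0.11 (adjusted p = 0.0105), with 2017 and 2044 in the mutant, against 2823, 3557, 2826 and 3088 in the wild type. The Uhrf1 call was lost without either mutant pool. Stag2 and Ehmt2 had -0.02 and 0.03 (adjusted p = 0.926 and 0.910). Dnmt1, the maintenance methyltransferase, named here after its value was seen, had -0.08 (adjusted p = 0.635).

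In the list of genes reported with the Plagl1 network, 15 of 20 were tested, and its PLAG family genes Plag1 and Plagl2 have no value here. Of the 15 tested, 4 rose and 0 fell, and the other 11 did not pass (median 0.41). Lum, a matrix proteoglycan, rose by 1.27 ± 0.15 (adjusted p = 0.00116) and Col6a2, a collagen VI chain, by 0.91 ± 0.15 (adjusted p = 0.00556), beside Dcn and Ndn above. The Col6a2 call was lost without mutant pool 1. Other matrix genes of the list did not pass at their brightest probe set. Col1a1 had 0.34 there (adjusted p = 0.320) and Col3a1 0.41 (adjusted p = 0.0703). However, another Col3a1 probe set was past the threshold, with 0.95 ± 0.17 (adjusted p = 0.00751). The remaining Col3a1 probe set had 0.72 (adjusted p = 0.0863) and the other Col1a1 probe set 0.23 (adjusted p = 0.16), and neither passed. Sparc, a secreted matrix protein, had 0.03 (adjusted p = 0.926) and Sgce -0.07 (adjusted p = 0.745). Among 27 tested G protein and adenylyl cyclase genes around Gnas, 2 rose, 2 fell and 23 did not pass (median 0.03). Adcy2, an adenylyl cyclase, rose by 1.51 ± 0.13 (adjusted p = 2.58e-04) and Gng10 by 0.47 ± 0.11 (adjusted p = 0.026). Gnaz, an inhibitory alpha subunit, fell by 1.90 ± 0.33 (adjusted p = 0.00721) and Gna12 by 0.38 ± 0.10 (adjusted p = 0.0371). Gnaz was dim, with 31.1 and 24.5 in the mutant, both below the filter level, against 134 to 165 in the wild type. The size of its fall depended on the offset, with -2.37 at an offset of 1 and -1.20 at 64. The second Gna12 probe set had -0.05 (adjusted p = 0.950). The Gng10 and Gna12 calls were lost without either mutant pool or wild-type pool 1, that of Gna12 also without wild-type pool 3, and that of Gnaz without mutant pool 2. Adcy6 and Gnai3 had 0.03 and -0.05 (adjusted p = 0.930 and 0.877).

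**Figure D4:**
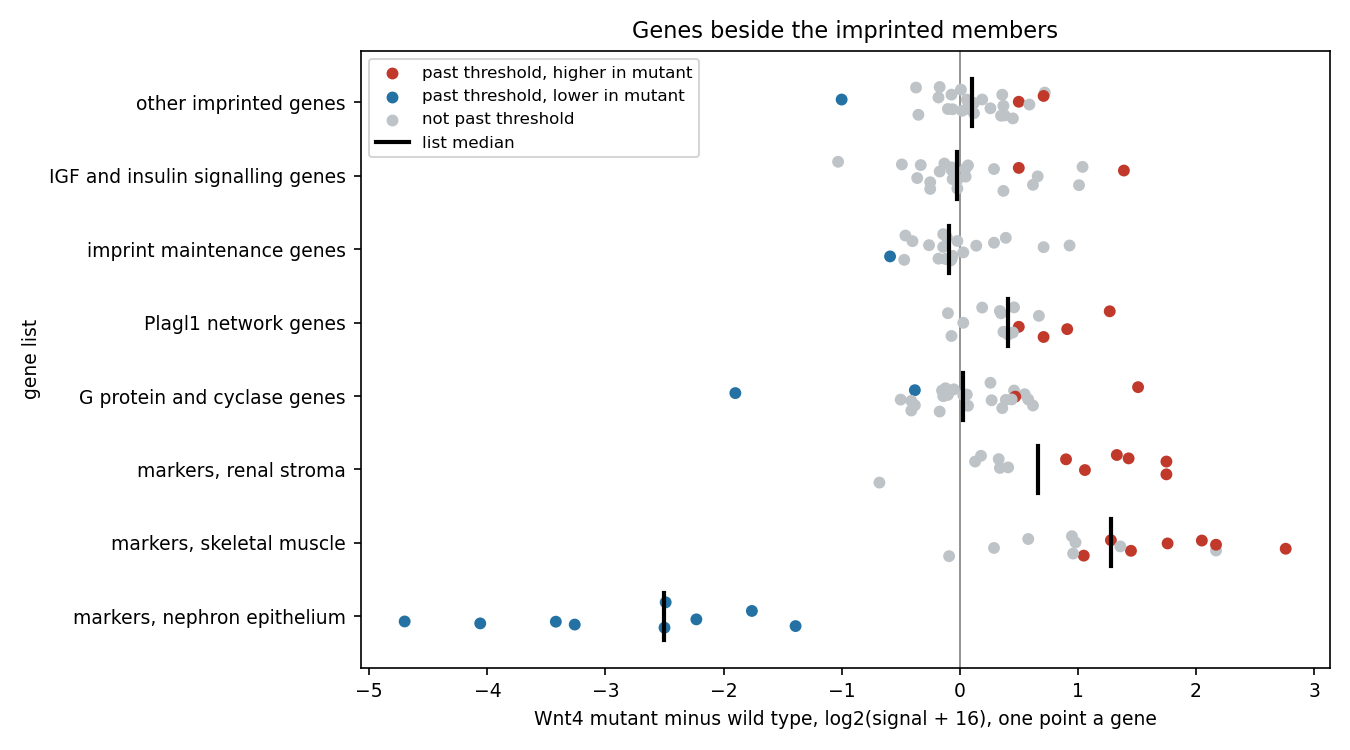
Log2 difference, Wnt4 mutant minus wild type, of each tested gene in 5 lists around the members and 3 marker lists, with black bars at the list medians. The medians are 0.10 for other imprinted genes, 0.41 for the Plagl1 network, 0.66 for stroma, 1.28 for skeletal muscle and -2.50 for nephron epithelium.

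Among the marker lists of other cell types, those of stroma, skeletal muscle and erythroid cells held genes that rose. Over all genes tested 5.13% rose and 6.35% fell. Of 12 renal stroma markers tested, 6 rose and 0 fell, and their summed signal was 44268 to 46836 in the mutant, against 27762 to 34124 in the wild type. Col1a1, Col1a2, Col3a1 and Penk, which did not pass, were among the brightest genes in that sum. Differences were positive for 11 of the 12. The exception was Pdgfrb (-0.68, not past the threshold), with 207 and 218 in the mutant, against 264 to 430 in the wild type. Of 15 tested skeletal muscle markers, 7 rose and 0 fell, with a sum over the 22 on the array of 7274 to 7902 in the mutant, against 2445 to 3183 in the wild type. Among them, Myod1 read 471 and 393 in the mutant, against 115, 165, 117 and 209 in the wild type, while 7 of the 22, Myf5 and Myf6 included, were below the filter. For adrenal medulla and neural markers 0 of 7 tested passed, and the sum was 4258 to 4837 in the mutant, against 3312 to 3817 in the wild type. For adrenal cortex and gonad markers 0 of 4 passed, the sums overlapped (3435 to 3716 in the mutant, against 3200 to 4058 in the wild type), and Star, Cyp11a1 and Cyp17a1 were below the filter. For cartilage 0 of 3 passed (1086 to 1502 against 870 to 942). Of 10 endothelial markers 4 fell and 0 rose, and of 8 erythroid markers 3 rose and 0 fell. Those 3 were the embryonic globins Hbb-y (1.66), Hbb-bh1 (2.18) and Hba-x (1.78). The other 5 erythroid markers did not pass. Among them Alas2 had -0.46, and the adult globin Hba-a1 read 21015 and 20603 in the mutant, against 17830 to 23586 in the wild type. Of all 8, 4 had a positive difference, and the median was 0.15. The part of these cell types in the higher signals of Plagl1, Dlk1, Meg3, Nnat and Peg3 was not tested.

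The genes whose profile over the 6 arrays was closest to a member's were found for the 5 members whose brightest probe set ranged over at least 1 log2 unit. Closeness was the root mean square distance between log2 profiles centred on their means, and it describes these 6 arrays only. Nearest to Dlk1 was Itm2a, a membrane protein gene, at 0.054, with a difference of 1.11, and next was Wdr92 at 0.127. Nearest to Nnat were Pofut2 (0.058) and Fxyd1 (0.072). Nearest to Plagl1 were Smarca2 (0.116), a chromatin remodelling ATPase, and St8sia4 (0.124). For Meg3 and Grb10, whose brightest probe sets each held a nearly dark wild-type array, the nearest genes lay farther away. They were Myog (0.600) and Srxn1 (0.607) for Meg3, and Tgfbr1 (0.713) and Gli3 (0.877) for Grb10.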

How the data were processed

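Total RNA was amplified in 1 round, labelled with biotin and hybridised, per the labels' protocols. The authors deposited 1 linear intensity (signal) for each probe set and array, and the submitters' processing notes name GCOS, software from Affymetrix. Its version and settings were not used here. Each deposited column had a mean of 500.27 to 500.29 without its lowest and highest 2% of values, so the arrays had already been scaled, and no further normalization was applied.

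Probe sets were named from the platform annotation, updated by gene identifier to RefSeq symbols (GRCm38.p6). Of 12422 probe sets without the 66 controls, 10833 had 1 symbol, 396 had several and 1193 were unnamed here. Probe sets above the 40th percentile of their array on at least 2 arrays were tested with limma 3.58.1 under R 4.3.3 (lmFit, eBayes with a variance trend) on log2(signal + 16), two-sided, with Benjamini-Hochberg adjustment over 7981 probe sets and a threshold of 0.05. The offset understates differences of dim probe sets. The fit was also run on simulated data, with normal noise of the same wild-type spread in both groups. That simulation held no nearly dark single arrays and no difference in pool size, so it does not bear on these limits. In the lists a gene was represented by its brightest tested probe set. The members and lists were chosen with earlier results of these data known. The text names all members, up to 6 genes past the threshold and the 2 smallest differences of each list, and the 2 nearest profiles of each member whose range was at least 1 log2 unit. Alternatives were the offset, the filter, quantile normalization, the variance trend, array weights, a replicate block, leaving out arrays, and averaging the probe sets of a gene. The p-values set each difference against the spread between these pools, with precision limited by the number of arrays. A single variance per probe set was fitted to both groups, although mutant pools held 8 to 10 kidneys and wild-type pools 2. Variation between single animals was not measured.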

Additional observations from a re-analysis of the deposited data

Results flagged for a closer look

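Among 36 probe sets of named genes, 7 had a wild-type array whose gap to the nearest of the others was large against the whole wild-type range (Dixon's ratio, past its critical value). Chance alone flags about 1 in 20. Wild-type array 2 was low for Grb10 at 93690_at (42.3, ratio 0.836) and 93691_s_at (20.2, ratio 0.909). Wild-type array 4 was low for Plagl1 92502_at (828, ratio 0.833), Mest 92607_at (5823, ratio 0.919) and Col6a2 (553, ratio 0.865). Wild-type array 3 was low for Nnat 97520_s_at (1098, ratio 0.859), and wild-type array 1 was high for Dcn (2594, ratio 0.888).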

How the results depend on the processing

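For single probe sets and genes, 472 recomputed values kept direction and side of the threshold, 41 lost the call, 9 gained it and 34 changed sign. The cause of each change was not tested. The 5 member probe sets past the threshold ranged from 3 to 6 as each array was left out in turn, with 3 when either mutant array was missing, and the 4 member genes at their brightest probe set ranged from 2 to 5. Plagl1 92502_at and Dlk1 lost the call without mutant array 1 (1.23 each) and without mutant array 2 (1.08 each), and Plagl1 92502_at also without the variance trend. Over the whole array, calls fell to 331 and 302 without mutant arrays 1 and 2, against 859 with all arrays, and were 575 without wild-type array 1, 579 without the variance trend and 1351 with array weights. With each array left out in turn, higher calls ranged from 1 to 4 for other imprinted genes, 1 to 2 for IGF genes, 0 to 1 for imprint maintenance genes, 2 to 6 for the Plagl1 network and 1 to 3 for G protein genes. Lower calls ranged from 0 to 1 for other imprinted genes, 0 to 3 for imprint maintenance genes and 0 to 2 for G protein genes, and were 0 throughout for the other lists.

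Without the variance trend, the other imprinted genes had 1 higher and 0 lower, IGF genes 1 higher, imprint maintenance genes 0 lower, and G protein genes 1 higher and 1 lower. With array weights, higher calls were 6, 4, 1, 9 and 4 in the 5 lists, and imprint maintenance genes had 2 lower. With no filter, other imprinted genes had 0 lower and IGF genes 1 higher, and at the 60th percentile imprint maintenance genes had 1 higher and G protein genes 1 lower. With a gene's probe sets averaged, IGF genes had 1 higher, imprint maintenance genes 1 higher and G protein genes 1 lower. With wild-type arrays 2 and 4 left out, added after seeing the data, imprint maintenance genes had 1 higher and 3 lower.

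The labels number the replicates, but only 2 numbers are shared, and the main fit used no pairing. The deviations of same-numbered arrays from their group means correlated by 0.003 and -0.015. With 2 mutant arrays the mutant deviations mirror each other. These values are therefore not separate checks and cannot settle whether the numbers pair the samples. With the replicate number as a block, wild-type pools 3 and 4 have no mutant partner. The difference then rests on pools 1 and 2 of each group alone. In that fit 703 probe sets were past the threshold. Meg3 160172_at (1.29) gained the call, with its low wild-type pool 4 (63.7) outside the difference. Peg3 101451_at (3.17) gained it too, but its nearly dark wild-type pool 2 (24.2) was 1 of the 2 wild-type values used. Shc1 (0.48), Gng10 (0.51), Gna12 (-0.37) and Gnaz (-1.84) lost the call. Imprint maintenance genes then had 1 higher and 2 lower, and G protein genes 1 higher and 0 lower.

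Differences near 0 changed sign without any of them passing. Gnas 93271_s_at had 0.054 under quantile normalization and 0.048 without wild-type arrays 2 and 4. Under quantile normalization Ampd3 had -0.05 and Phlda2 -0.017. With the block Ampd3 had -0.028, Phlda2 -0.0034, Igfbp3 0.012 and Sparc -0.11. Array weights gave -0.028 for Sparc and 0.023 for Gnai3, and averaging gave 0.08 for Stag2. Without wild-type arrays 2 and 4, Foxo3 had 0.03, Sparc -0.082 and Gnai3 0.12.
With each array left out in turn, the range was -0.037 to 0.10 for Igf2, -0.051 to 0.27 for Ampd3 (4 of the 6 omissions, since it was below the filter without wild-type array 2 or mutant array 2), -0.10 to 0.14 for Phlda2, -0.069 to 0.024 for Foxo3, -0.21 to 0.17 for Igfbp3, -0.21 to 0.17 for Stag2, -0.07 to 0.12 for Ehmt2, -0.11 to 0.10 for Sparc, -0.20 to 0.26 for Adcy6 and -0.14 to 0.068 for Gnai3.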

Other observations

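The IGF pathway genes Igf1r and Igf2bp1 split the wild-type pools, in values noticed after the data were seen. Igf1r, the receptor through which Igf2 signals growth, read 1199 and 1122 in the mutant, against 257, 340, 1082 and 984 in the wild type. Its difference of 1.04 ± 0.53 did not pass (limma, adjusted p = 0.250). Igf2bp1, which binds Igf2 mRNA, read 991 and 1032 in the mutant, against 356, 263, 819 and 773 in the wild type, and its difference of 1.01 ± 0.41 did not pass either (adjusted p = 0.157). For both genes wild-type pools 1 and 2 were low, and pools 3 and 4 lay nearer to the mutant pools. Outside this pathway, Tcf4 read 1367 and 1524 in the mutant, against 746, 740, 1184 and 999 in the wild type, and Cbx1 read 452 and 413 in the mutant, against 138, 129, 473 and 264 in the wild type. No comparison between these wild-type pools was tested.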
